A study of Rattus norvegicus with 241 samples.

Results

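Basal cells of the mammary gland were profiled by bulk RNA-seq in parous adult ACI rats, females of an inbred strain that had been pregnant before, after TGFBRi or vehicle. TGFBRi (LY2157299, an oral drug that blocks the kinase of the TGFβ type I receptor) was given by gavage at 75 mg/kg, 2 doses per day for 10 days, to rats of 18 to 24 weeks of age, and control rats received the vehicle on the same schedule. Glands were taken on day 0, right after the last dose. Members were chosen by cell type (basal), parity (parous) and arm, which gave 8 samples, 4 rats per arm, of the 241 samples of the series. Samples are called replicates 1 to 4, in the order P1N, P1R, P2N and P2R of the animal labels, and a label used in both arms stands for different rats. The basal and luminal samples of an arm and label came from the same rat. Basal cells were sorted as CD24+CD29high cells after removal of CD31+ endothelial cells and CD45+ leukocytes. Glands were sorted fresh or after freezing, and the sources used here do not say which for each sample. The 8 samples of virgin adult ACI rats (4 vehicle, 4 TGFBRi) served for the test of a difference with parity, and the 8 luminal samples (CD24+CD29low) of the parous rats for that between cell fractions.

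Basal cells line the outside of the mammary ducts and alveoli, contract under oxytocin to eject milk, and hold the basal keratins KRT5, KRT14 and KRT17. TGFβ ligands are secreted in a latent form, are freed by integrins and proteases, and signal through a type II and a type I receptor to SMAD2 and SMAD3, which enter the nucleus with SMAD4 and raise their own inhibitors such as SMAD7 and PMEPA1. Glucocorticoids signal in the same cells through the receptor NR3C1, and TSC22D3 (GILZ), FKBP5, KLF15, ZBTB16 and PER1 are among their classic induced genes in many tissues.

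Each parous basal sample held 21805588 to 27438371 reads on genes in the vehicle arm and 19852972 to 28217672 in the TGFBRi arm, and 11775 to 12306 and 12138 to 12575 genes with reads. Reads outside any annotated gene took 14.2 to 18.5% of the reads in vehicle and 17.4 to 20.9% in TGFBRi samples (exact two-sided permutation p = 0.114, adjusted p = 0.32 over 14 such tests). The vehicle sample with the highest share, replicate 4, was also the one with the fewest genes. Pairs of samples of 1 arm correlated at 0.924 to 0.964 over the log2 values of genes averaging 50 reads or more, and pairs across the arms at 0.897 to 0.965, so the ranges overlapped. Values below are read counts divided by the size factor of the sample, called normalized values, and are not divided by gene length, so levels of different genes are not compared. Changes are on the log2(normalized value + 1) scale, TGFBRi minus vehicle, with their standard error (SE), from limma over 13442 genes. That fit took the spread of each gene from all 16 adult basal samples, parous and virgin, so an SE is not that of the parous rats alone. The 4 rats of an arm are separate animals.

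Of the 13442 genes tested, 1 gene, PLXNB3, passed an adjusted p of 0.05 in parous basal cells (0.00744% of genes), and it was higher after TGFBRi. Next by p stood KLF15, a zinc finger factor of amino acid and lipid metabolism, and TSC22D3, a glucocorticoid-induced leucine zipper protein. Both were higher in every TGFBRi sample than in any vehicle sample, but neither passed in limma (adjusted p = 0.0922 and 0.121). An unadjusted p under 0.05 was reached by 678 genes (5.04%), 439 of them higher (3.27%) and 239 lower (1.78%) after TGFBRi. This count depended on the samples in the fit. It was 1449 in limma on the 8 parous samples alone, and 366 to 814 when 1 parous sample was left out. By edgeR on the recovered reads 0 genes passed, with 738 at an unadjusted p under 0.05, while DESeq2 on the same reads called 14 genes (0.107% of 13130 with an adjusted p), all higher after TGFBRi. DESeq2 on the 8 parous samples alone, an alternative added after the data were seen, called 201 genes (1.64% of 12271), 160 higher and 41 lower. Values of the arms did not overlap for 775 genes (5.77%), 431 higher (3.21%) and 344 lower (2.56%). In bulk samples, more cells of a type and more RNA per cell cannot be told apart. Among genes averaging 50 reads or more the fitted change had a median SE of 0.33 and a median 95% interval of ± 0.69 before any adjustment over genes.

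PLXNB3 encodes plexin B3, a receptor for semaphorins that guide axons and cell movement. It had 0, 0, 0 and 0 in the 4 vehicle samples and normalized values of 167, 57.2, 72.3 and 50.6 in the 4 TGFBRi samples. No vehicle library held a read of the gene, so that the fold can only be bounded, as at least 117-fold higher after TGFBRi against a floor of 3 reads over the 4 vehicle libraries. The fitted limma change was 6.29 ± 0.88 (SE, adjusted p = 0.0202), with an edgeR adjusted p of 0.284 and a DESeq2 adjusted p of 5.05e-06. Its level was low, and leaving out any 1 of vehicle replicates 1, 2 and 4 or TGFBRi replicates 1 and 3 left 0 genes past the threshold, while 5 passed without vehicle replicate 3 and 2 without TGFBRi replicate 2 or 4. Virgin basal cells showed the opposite order, with 26.4, 21.7, 43.2 and 0.928 in the vehicle samples and 0, 0, 1.44 and 0 in the TGFBRi samples. Luminal cells of the same parous rats held 0 to 3.91 in the vehicle samples and 0 to 1.63 in the TGFBRi samples.

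**Figure D1:**
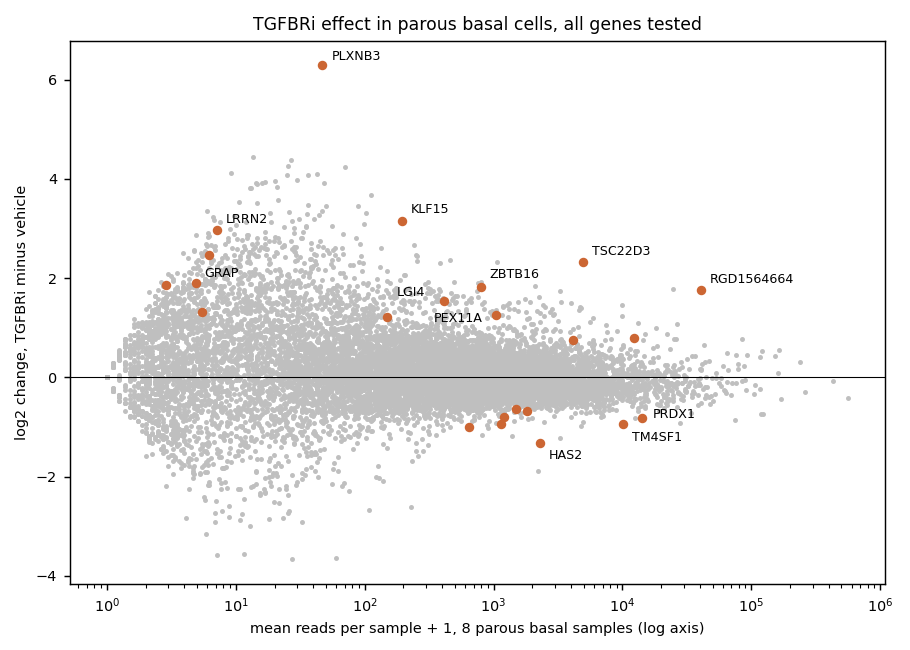
Fitted log2 change (TGFBRi minus vehicle) of each of the 13442 genes tested in parous basal cells against its mean reads per sample (log axis). Orange points are the 23 genes named by rule from the limma, edgeR and DESeq2 fits, and PLXNB3 lies above all other points, at 6.29.

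The genes of the glucocorticoid list lay mostly above 0. Of its 20 genes, 19 were measured, 18 had a fitted change above 0 against 53.7% of all genes, and 0 passed the limma threshold. The median change of the list was 0.88, beside 0.040 over all genes. Its values did not overlap between arms for 6 of 19 genes, all higher after TGFBRi, against 3.21% of all genes in that direction, and 9 of 19 had an unadjusted p under 0.05, all higher, against 3.27% of all genes in that direction. DESeq2 called 3 of them, KLF15, TSC22D3 and ZBTB16, against 0.107% of all genes. The list was drawn up with earlier results of these data known, so these counts are a description.

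KLF15 had normalized values of 37.9, 26.2, 63.3 and 18.5 in the vehicle samples and 503, 133, 408 and 305 in the TGFBRi samples. The lowest TGFBRi sample was about 2 times the highest vehicle sample. Its limma change was 3.16 ± 0.53 (SE, 95% interval 2.05 to 4.27), with an adjusted p of 0.0922 in limma, 0.105 in edgeR and 2.16e-07 in DESeq2. Over the 25 alternative fits the change of KLF15 stayed between 2.89 and 3.55 and passed the threshold in 6 of them.

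TSC22D3 was at 1627, 1571, 1726 and 876 in vehicle and 15852, 5380.0, 5427 and 5249 in TGFBRi samples. Here 3 of the TGFBRi samples lay close together and replicate 1 far above them, while vehicle replicate 4 lay below the other three. The change was 2.32 ± 0.41 (SE, 95% interval 1.46 to 3.19), with an adjusted p of 0.121 in limma, 0.105 in edgeR and 5.05e-06 in DESeq2. ZBTB16 (PLZF), a zinc finger repressor, had 204, 377, 353 and 462 in vehicle and 1769, 1317, 796 and 1048 in TGFBRi samples, without overlap. Its fitted change was 1.82 ± 0.42 (SE, limma adjusted p = 0.551), and it passed in DESeq2 (adjusted p = 0.0279).

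FKBP5, a cochaperone that binds the glucocorticoid receptor complex and damps it, had 705, 903, 496 and 424 in vehicle and 2966, 1504, 1042 and 962 in TGFBRi samples, a difference of 1.26 ± 0.36 (SE, limma adjusted p = 0.737). The lowest TGFBRi value lay just above the highest vehicle value. PER1, a clock repressor that glucocorticoids also induce, was at 588, 652, 676 and 1407 in vehicle and at 1754, 1916, 1720.4 and 1888 in TGFBRi samples. Its 4 TGFBRi values were close to each other and above all vehicle values, with a change of 1.22 ± 0.48 (SE, limma adjusted p = 0.939). The other gene of the list without overlap was BCL6, a repressor in lymphoid and other cells, at 159.5, 271, 277 and 423 and 565, 485, 442 and 484.

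The metallothioneins are small metal-binding proteins that glucocorticoids and metals induce. MT2A was on the list, and its relative MT1 was added after its values were seen. MT1 had 9929, 14908, 11783 and 12504 in vehicle and 26648, 26813, 17948 and 26831 in TGFBRi samples without overlap, 0.99 ± 0.26 (SE), and MT2A had 13119, 15054, 14549 and 18995 and 35692, 35969, 15981 and 30320.2 with overlap, 0.88 ± 0.27 (SE). The limma adjusted p was 0.737 for MT1 and 0.91 for MT2A, so neither passed, while in DESeq2 on the 8 parous samples alone both did (adjusted p = 0.00071 for MT1 and 0.0297 for MT2A). SGK1, a kinase of sodium transport and survival, overlapped between arms (0.76 ± 0.35, SE), as did TXNIP, an inhibitor of thioredoxin (0.98 ± 0.36, SE), and KLF9, a repressor induced by steroid and thyroid hormones (1.06 ± 0.53, SE). The receptor NR3C1 itself was at 1556, 1196, 1584 and 2134 in vehicle and 1806, 2024, 1593 and 1945 in TGFBRi samples, with a change of 0.21 ± 0.20 (SE, 95% interval -0.22 to 0.64).

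**Figure D2:**
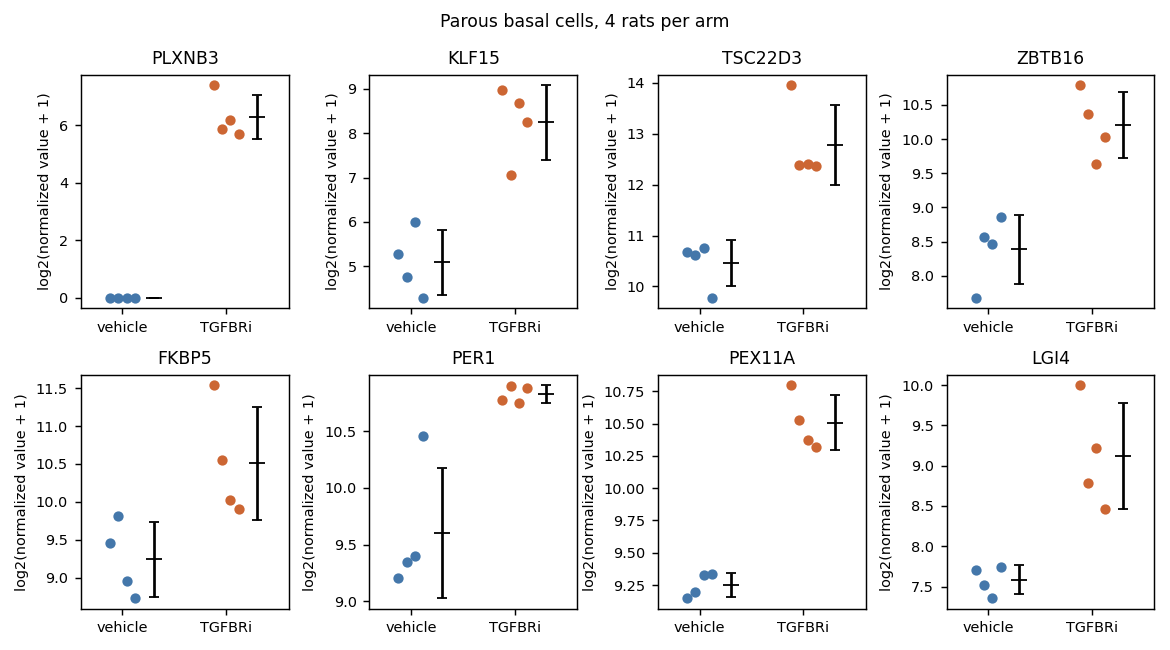
Log2(normalized value + 1) of 8 genes in the 4 vehicle (blue) and 4 TGFBRi (orange) samples of parous basal cells, 1 point per rat, with bars for the mean ± SD. In each of the 8 panels every TGFBRi sample lies above every vehicle sample, and the gap is narrowest for FKBP5 (903 against 962 on the linear scale).

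The stretch of 250 bases before the transcription start is shown for KLF15, whose change had the smallest p after PLXNB3, and for PLXNB3, the gene that passed. They come from RefSeq on build GRCr8, which is not the build of the read counts (rn6). KLF15 lies on the + strand of chromosome 4 (chr4:124522765-124523014) and PLXNB3 on the + strand of the X chromosome (chrX:156646624-156646873), and both are written 5′ to 3′. Capitals mark matches to CACGTG, the palindromic E-box that the clock factors CLOCK and ARNTL bind.
KLF15: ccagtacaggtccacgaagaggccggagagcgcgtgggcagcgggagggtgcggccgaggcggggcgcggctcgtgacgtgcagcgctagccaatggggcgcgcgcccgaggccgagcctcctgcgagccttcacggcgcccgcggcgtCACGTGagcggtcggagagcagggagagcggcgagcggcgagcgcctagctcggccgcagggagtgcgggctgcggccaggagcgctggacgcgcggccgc
PLXNB3: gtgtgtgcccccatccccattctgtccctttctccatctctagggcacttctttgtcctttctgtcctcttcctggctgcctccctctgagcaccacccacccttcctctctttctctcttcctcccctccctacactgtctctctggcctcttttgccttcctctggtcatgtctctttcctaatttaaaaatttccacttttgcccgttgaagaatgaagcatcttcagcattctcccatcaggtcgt
KLF15 held 1 such match and PLXNB3 held none. Of all 33469 windows of this length 5.59% held it on either strand, and of the 20 windows of 15 glucocorticoid genes that had one, 4 did (BCL6, DUSP1, KLF15 and MT2A). AGAACA, a core of the glucocorticoid receptor motif, was in 0 of those 20 windows and in 17.5% of all, searched on both strands. Letters in this window are a description, and their absence says only that they are not in these bases.

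DESeq2 called 14 genes, all higher after TGFBRi, and 8 of them had a mean of 50 reads or more in the 8 samples. The values of 8 of the 14 did not overlap between arms. Besides KLF15, TSC22D3 and ZBTB16 these included PEX11A, which helps peroxisomes divide. It was at 566, 584, 643 and 644 in vehicle and 1776, 1477, 1327 and 1278 in TGFBRi samples. Its limma change was 1.25 ± 0.29 (SE, adjusted p = 0.581), beside a DESeq2 adjusted p of 0.0396. LGI4, a secreted protein of Schwann cell myelination, had 208, 183, 163 and 214 and 1020.3, 441, 596 and 353, a change of 1.54 ± 0.39 (SE, limma adjusted p = 0.737, DESeq2 0.0279). EMX2, a homeobox factor of brain and urogenital development, had 87.0, 82.01, 86.1 and 105.7 and 206, 206, 254 and 178, a change of 1.21 ± 0.35 (SE, limma adjusted p = 0.737, DESeq2 0.0267). Neither gene overlapped between arms.

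RGD1564664, a locus without a function given here, stood at 8917, 23515, 16796 and 19359 in vehicle and 104602, 82953, 41053 and 24609 in TGFBRi samples, where replicates 1 and 2 were far above 3 and 4. PTGIR, the prostacyclin receptor, which was named after its values were seen as the last of the 14, had 41.9, 191, 134 and 131 in vehicle and 1467, 1052, 360.2 and 187 in TGFBRi samples, again highest in replicates 1 and 2 and overlapping. The fitted changes were 1.75 ± 0.46 and 2.37 ± 0.67 (SE), with limma adjusted p of 0.737 and 0.737.

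The other 5 of the 14, NCKAP1L (a WAVE complex subunit of blood cells), HRH3 (a histamine receptor), LRRN2, GRAP (an adaptor of T cell signaling) and KIAA0408L, had no read in any of the 4 vehicle libraries and few in the TGFBRi libraries. KIAA0408L had reads in 1 TGFBRi sample, replicate 4, at 38.0. GRAP had them in 2, at 19.6 and 8.70. In NCKAP1L the 4 TGFBRi values were 0, 12.4, 32.9 and 1.05, in HRH3 4.89, 2.49, 0 and 7.38 and in LRRN2 16.3, 28.6, 0 and 6.33. All 5 therefore overlapped with vehicle at 0, and their limma adjusted p lay between 0.939 and 0.988, LRRN2 included at 0.939. The calls of these 5 rest on DESeq2 alone.

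A further pair, ETV5 and ESYT2, was among the 8 non-overlapping genes with the smallest p in the upward direction and passed in neither limma nor DESeq2 over the 16 basal samples. ETV5, an ETS factor downstream of FGF and EGF receptor signaling, had 10569, 8530.1, 8165 and 8844 in vehicle and 14819, 13324, 15347 and 19505 in TGFBRi samples, 0.80 ± 0.20 (SE, limma adjusted p = 0.737). ESYT2, which tethers the endoplasmic reticulum to the plasma membrane, had 3141, 2957, 2627 and 3705 and 5996, 5689.6, 4564 and 4719, 0.76 ± 0.19 (SE, limma adjusted p = 0.737). The values of both genes did not overlap between arms, as the rule that named them requires.

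No gene was called lower by any of limma, edgeR and DESeq2 over the 16 basal samples. The 8 downward genes with the smallest p that did not overlap were TM4SF1, HAS2, ATXN10, SERPINB5, PRDX1, DTD1, PEPD and BATF, with limma adjusted p of 0.737 to 0.91. HAS2, which makes the matrix sugar hyaluronan, was at 3485, 3627, 2524 and 3415 in vehicle and 1087, 1915, 1079 and 1266 in TGFBRi samples (-1.31 ± 0.34, SE). TM4SF1, a membrane protein of cell movement, was at 13908, 14065, 13613 and 11451 and 6491, 8672, 5769 and 6813 (-0.95 ± 0.24, SE). SERPINB5 (maspin), a basal cell serpin known as a tumor suppressor, was at 1707, 1175, 1188 and 2025 and 609, 995, 757 and 784 (-0.94 ± 0.25, SE). PRDX1, a peroxide-reducing enzyme, was at 17046, 18879, 20005 and 17089 and 9978, 11390.3, 9867 and 10103 (-0.82 ± 0.23, SE). In these 4 genes each TGFBRi value was below each vehicle value, and none of these differences passed in limma, edgeR or DESeq2 over the 16 samples. In DESeq2 on the 8 parous samples alone 7 of the 8 genes passed, all but PEPD, beside 1.64% of all genes in either direction. The adjusted p was 4.70e-05 for HAS2, 0.000192 for TM4SF1, 0.0125 for SERPINB5 and 3.10e-05 for PRDX1. ETV5 (0.00328) and ESYT2 (0.00928) passed there too. The rule had picked all these genes for values that did not overlap in the same 8 samples. Passing there is therefore not independent support.

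The ligands, receptors and transducers of the TGFβ pathway held no gene past the threshold in any of the fits with limma, edgeR or DESeq2 named above, at an unadjusted p under 0.05 or without overlap between arms. Fitted changes of the 6 ligands ran from -0.67 to 1.32 with a median of 0.22. TGFB1 was at 428, 316, 515 and 652 in vehicle and 553, 596, 461 and 505 in TGFBRi samples, 0.19 ± 0.32 (SE, 95% interval -0.49 to 0.87), and TGFB3 at 870.2, 1097, 1363 and 1032 and 1378, 891, 1551 and 1409, 0.25 ± 0.27 (SE). INHBA, the activin A subunit, was high in TGFBRi replicates 1 and 2 only (45.9, 68.9, 54.98 and 122 against 479.6, 440.1, 89.3 and 44.3). The arms overlapped for each of the 3 genes.

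Receptors lay between -0.19 and 0.69. TGFBR1, the kinase that TGFBRi blocks, was at 608, 689, 373 and 601 in vehicle and 750.3, 735, 556 and 729 in TGFBRi samples, 0.31 ± 0.31 (SE, 95% interval -0.34 to 0.96). TGFBR2, its type II partner, was at 1832, 1937, 1711 and 1929 and 2614, 2873, 2310.2 and 1839, 0.36 ± 0.27 (SE), and the coreceptor TGFBR3 stood at 0.41 ± 0.31 (SE). Changes of the 4 transducers ran from 0.12 to 0.34, with SMAD2 at 0.28 ± 0.21 (SE).

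Feedback inhibitors and targets were spread on both sides of 0. Of 8 measured feedback genes 3 lay above and 5 below 0 (median -0.15), and of 27 measured targets 14 lay above and 13 below (median 0.036, beside 0.040 over all genes). None passed in limma, and 1 of the 27 targets reached an unadjusted p under 0.05, beside 5.04% of all genes. That was SNAI1, a repressor of epithelial genes, at 1000.0, 1013, 1162 and 1283 in vehicle and 3090.2, 2568, 2343 and 1354 in TGFBRi samples, 1.01 ± 0.41 (SE, limma adjusted p = 0.939). SNAI1 passed in DESeq2 on the 8 parous samples alone (adjusted p = 0.00557). Its arms did not overlap, with TGFBRi replicate 4 close to the highest vehicle sample.

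PMEPA1, a membrane inhibitor that TGFβ itself induces, had 18284, 34587, 40294 and 50625 in vehicle and 26091, 35965, 6882 and 15863 in TGFBRi samples. Replicates 3 and 4 of the TGFBRi arm were below all vehicle samples and replicates 1 and 2 within their range, for a change of -0.91 ± 0.48 (SE, 95% interval -1.92 to 0.093). It was -0.45 without TGFBRi replicate 3 and ran to -1.25 without TGFBRi replicate 2, none past the threshold. TGIF1, a corepressor of SMAD complexes, stood at -0.42 ± 0.34 (SE) and the TGFβ-stimulated factor TSC22D1 at -0.32 ± 0.22 (SE), both with overlap. Other genes lay above 0, and the highest fitted change was 0.47 among feedback genes and 1.19 among targets. PDGFB, a platelet growth factor chain, was at 272, 231, 485 and 486 and 237, 368, 168 and 239, -0.52 ± 0.34 (SE).

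Among the 8 measured genes of latency and activation, 1 reached an unadjusted p under 0.05, beside 5.04% of all genes. It was also the 1 gene of the 8 without overlap between arms, beside 5.77% of all genes. LTBP1, a matrix protein that binds latent TGFβ, had 500.4, 849, 608 and 747 in vehicle and 2434, 2106, 1958 and 1079 in TGFBRi samples without overlap, 1.45 ± 0.57 (SE, limma adjusted p = 0.939). LRRC32 (GARP), which anchors latent TGFβ on the cell surface, was high in TGFBRi replicates 1 and 2 (857, 2539, 1305 and 1370.1 against 7477, 5801, 1785 and 1670.5), 1.26 ± 0.67 (SE).

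**Figure D3:**
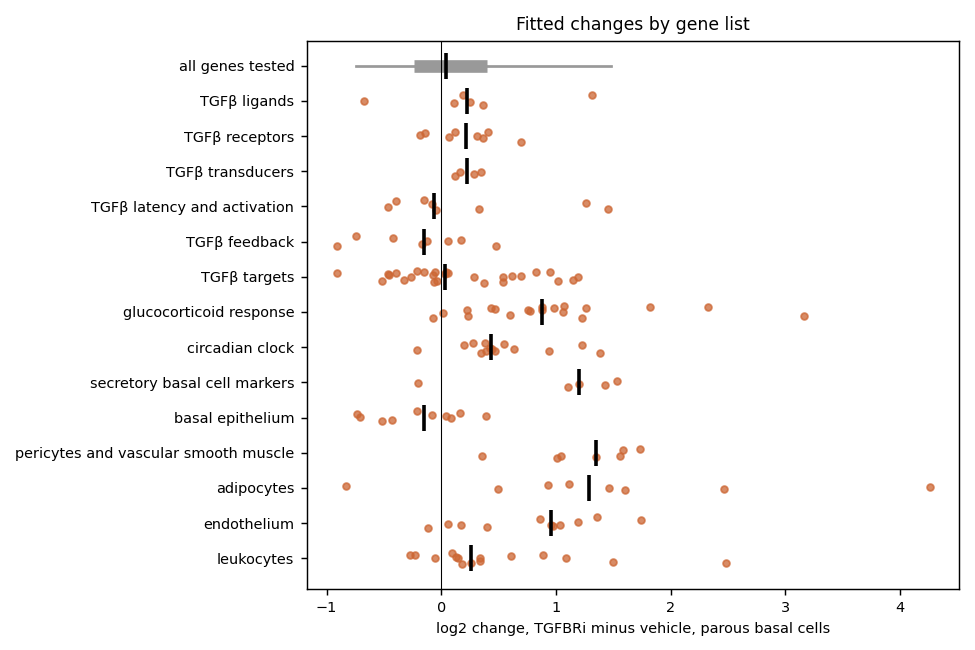
Fitted log2 changes (TGFBRi minus vehicle, parous basal cells) of each measured gene in 14 lists, 1 point per gene, with a black tick for the median. The grey bars give the middle 50% and 90% of all 13442 genes, whose median is 0.040. The medians furthest to its right are those of the glucocorticoid list (0.88) and of endothelial (0.96), secretory basal cell (1.20), adipocyte (1.29) and pericyte markers (1.35).

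Clock genes are transcribed in a daily rhythm and share PER1 with the glucocorticoid list. Of the 14 measured, 13 lay above 0 (median 0.43), 5 had an unadjusted p under 0.05 (all higher, against 3.27% of all genes) and 3 did not overlap between arms (all higher, against 3.21%), none past the threshold in limma. PER2, a repressor of the clock, was at 1421, 829, 2384 and 2228 in vehicle and 4039.6, 3109.6, 2635 and 2581 in TGFBRi samples, 0.94 ± 0.30 (SE), and CRY2, its partner, at 1039, 2046, 1321 and 1849 and 5464, 5409.8, 3264 and 2523, 1.39 ± 0.51 (SE). The time of day at which glands were taken is not given in the sources used here, and its part in these values was not tested.

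Markers of other cells were summed in the same libraries. The 7 markers of pericytes and vascular smooth muscle, cells that wrap small vessels, all lay above 0 (median 1.35), against 53.7% of all genes. Their summed normalized value was 2232, 4593, 2104 and 4603 in vehicle and 12970.2, 11216, 8452 and 5027 in TGFBRi samples, without overlap (exact two-sided permutation p = 0.0286, adjusted p = 0.2 over 14 tests, where 0.0286 is the smallest p that 4 against 4 samples allow). NOTCH3, a receptor that mural cells need, was at 727, 2084, 1072 and 2436 and 7126, 5553, 4135 and 2981, 1.74 ± 0.52 (SE). PDGFRB, the receptor that recruits them, was at 441, 1401, 533 and 1156 and 3739, 3720.1, 2023 and 1098, 1.58 ± 0.57 (SE), and RGS5 at 33.8, 174, 35.3 and 109 and 177, 366, 191 and 80.1. None of the 7 passed in limma, and PDGFRB and NOTCH3 passed in DESeq2 on the 8 parous samples alone, beside 1.64% of all genes. The part of these markers in the differences above was not tested.

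Adipocyte markers, 8 of 8 measured, summed to 2089, 5682, 1826 and 2680.2 in vehicle and 10638, 9147, 5779 and 2949.7 in TGFBRi samples, with overlap (exact two-sided permutation p = 0.0571, adjusted p = 0.267). LPL and FABP4, a fatty acid carrier that capillary endothelium also holds, made up much of the sum. FABP4 was at 589, 2888, 717 and 1001 in vehicle against 5968, 4987, 1896 and 1245 in TGFBRi samples. The mean of LPL was 1458 in vehicle and 3128 in TGFBRi samples (fitted change 1.11), beside 1299 and 3524 for FABP4. The defining marker ADIPOQ (adiponectin) held 0, 5.47, 9.34 and 1.09 in vehicle and 108.5, 16.2, 68.01 and 0 in TGFBRi samples, 2.46 ± 1.58 (SE), with overlap. The means of RETN, PLIN1 and CFD were also higher after TGFBRi, at 0.864 against 11.7, 14.8 against 27.4 and 183 against 268, with overlap. The mean of CIDEC was lower, at 110 in vehicle against 72.1 in TGFBRi samples, with overlap. Of the 8 genes 7 lay above 0 (median 1.29), against 53.7% of all genes. LEP (leptin) held 0, 1.09, 0 and 0 in vehicle and 66.1, 52.2, 77.6 and 0 in TGFBRi samples. It was the 1 gene of these 8 that passed in DESeq2 on the 8 parous samples alone (adjusted p = 0.00087), beside 1.64% of all genes. Endothelial markers, 11 of 11 measured, summed to 1093 to 6689.8 and 4089.7 to 6467, and leukocyte markers, 15 of 16 measured, to 1862 to 4406 and 2458 to 3069. Of the 11 endothelial genes 10 lay above 0 (median 0.96), against 53.7% of all genes, and 0 had an unadjusted p under 0.05. CD14 held most of the leukocyte sum, and its fitted change was 0.090 ± 0.37 (SE). PTPRC, which encodes CD45, held 0, 7.65, 2.07 and 0 in vehicle and 4.08, 67.1, 35.1 and 1.05 in TGFBRi samples, 2.48 ± 1.65 (SE), with overlap. CD68 and LYZ2, of macrophages, were at 1.49 ± 1.20 and 0.89 ± 1.61 (SE), and the lymphocyte genes CD3D and MS4A1 were at 0 in 6 of 8 samples. Of the 15 leukocyte genes 12 lay above 0 (median 0.26). Sums of fibroblast, luminal, skeletal muscle and erythroid markers overlapped between arms as well. Neither these sums nor the reads per sample differed at an unadjusted p under 0.05.

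The summed basal markers were lower in every TGFBRi sample than in any vehicle sample. The 10 genes summed to 455450.0, 528278, 466379 and 510732 in vehicle and 316688, 410904, 324583 and 403526 in TGFBRi samples, without overlap (exact two-sided permutation p = 0.0286, adjusted p = 0.2). Most of this sum is keratin, and the single genes lay on both sides, 4 above and 6 below 0 in log2 fold change (median -0.15), against 53.7% of all genes above 0. The integrin subunits ITGB1, ITGA6 and ITGB4, which anchor basal cells to the basement membrane, and the cadherin CDH3 were the 4 above 0, at 0.16 ± 0.20, 0.085 ± 0.19, 0.045 ± 0.29 and 0.39 ± 0.27 (SE). KRT14 was at 149909, 161290, 133082 and 151572 in vehicle and 86597, 105652, 68018 and 102095 in TGFBRi samples, -0.74 ± 0.28 (SE, limma adjusted p = 0.939), and KRT5 at 50405, 46207, 35382 and 35682 and 19780.3, 24841, 31506 and 26502, -0.71 ± 0.36 (SE), both without overlap. KRT17 overlapped, with a fitted change of -0.43 ± 0.27 (SE). ACTA2, the smooth muscle actin of contracting basal cells, was at 12779.5, 17566, 29165 and 17363 and 14406, 17779.9, 18577 and 19166, -0.079 ± 0.28 (SE). No basal marker passed in limma, while KRT14 (adjusted p = 0.0123) and KRT5 (0.0319) passed in DESeq2 on the 8 parous samples alone, beside 1.64% of all genes. All 10 had reads in every sample.

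**Figure D4:**
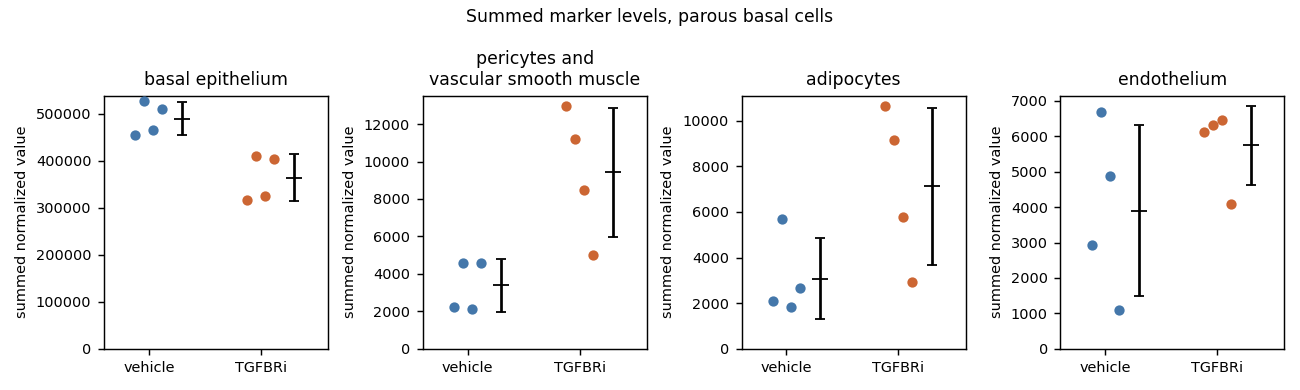
Summed normalized values of the basal, pericyte, adipocyte and endothelial marker lists in the 4 vehicle (blue) and 4 TGFBRi (orange) samples of parous basal cells, with bars for the mean ± SD and axes from 0. The arms do not overlap for the basal sum, which is lower after TGFBRi, or for the pericyte sum, which is higher, and they overlap for the others.

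Markers of secretory basal cells (SBC), a basal subset that the study describes, were PROCR, SORBS2, ID3, S100A4 and EPAS1. Of the 5 genes 4 lay above 0 (median 1.20), against 53.7% of all genes, and 2 had an unadjusted p under 0.05, both higher, against 3.27% of all genes in that direction. ID3 was the 1 below 0, at -0.20. The genes were taken from the study's account of these cells in other samples of the series, so their direction is not independent evidence. The paper also names SPARCL1 and IGFBP7 as secreted proteins of these cells, and they were not on this list. SPARCL1 passed in DESeq2 on the 8 parous samples alone (log2 change 1.61, adjusted p = 0.00328), beside 1.64% of all genes. IGFBP7 (0.88 in limma) did not pass there. In whole glands the paper found the SBC signature high in fibroblasts and endothelial cells too. PROCR, the protein C receptor, was at 3632, 11944, 6140.0 and 9330.1 in vehicle and 28156, 33751, 8293 and 6727 in TGFBRi samples, 1.10 ± 0.59 (SE). EPAS1 (HIF2A), an oxygen-sensing factor that vascular cells also hold, was at 1724, 3395, 1828 and 2966 and 10414, 9151, 4516 and 3844 without overlap, 1.43 ± 0.55 (SE), and S100A4 at 206, 578, 233 and 579.9 and 2338, 1636, 589.8 and 499, 1.53 ± 0.53 (SE). The limma adjusted p of the 3 genes was 0.939. TGFBRi replicates 1 and 2 were the highest of the 8 samples in all 3 genes, and they also had the highest pericyte and adipocyte sums. Their labels start with P1, and those of replicates 3 and 4 with P2. In the TGFBRi arm pairs with the same start correlated at 0.964 and 0.958, and the other pairs at 0.928 to 0.945. In the vehicle arm the values were 0.942 and 0.947, and 0.924 to 0.949. The sources used here do not say what P1 and P2 mark, and their part was not tested.

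Without TGFBRi replicates 1 and 2, an alternative added after the data were seen, 0 genes passed in limma. Of the 71 genes refitted, 34 had a change that moved by over 1.5 times. The fitted change was then 5.94 for PLXNB3, 3.38 for KLF15, 1.93 for TSC22D3, 1.45 for ZBTB16 and 1.10 for PEX11A, against 0.081 for PROCR, 0.92 for PDGFRB, 0.73 for FKBP5, 0.60 for S100A4, 0.53 for IGFBP4, 0.53 for MT2A and -1.69 for PMEPA1 (against -0.91 with all samples). With the share of reads on no feature as a covariate, also added later, 0 genes passed and the fitted changes of PLXNB3, KLF15 and TSC22D3 were 6.20, 3.11 and 2.20. Of the same 71 genes 21 moved by over 1.5 times with this covariate. PER1 went from 1.22 to 0.62, BCL6 from 0.88 to 0.54 and CRY2 from 1.39 to 0.85. EPAS1 went from 1.43 to 0.67, NOTCH3 from 1.74 to 1.04, PDGFRB from 1.58 to 0.89 and KRT5 from -0.71 to -0.41.

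Other lists held no gene past the threshold in limma either. Insulin-like growth factor genes had 11 of 14 above 0 (median 0.50), with the binding proteins IGFBP4 at 6431, 7842, 2987 and 4989.9 and 20923, 18947, 10638 and 5392 (1.23 ± 0.38, SE) and IGFBP7 at 0.88 ± 0.31 (SE). Interferon-stimulated genes had 10 of 13 above 0 (median 0.34) and 3 without overlap, all higher, against 3.21% of all genes. Of these IFIT1, an antiviral RNA-binding protein, was at 87.8, 233, 211 and 179 in vehicle and 588, 878, 577 and 361 in TGFBRi samples, 1.77 ± 0.47 (SE, limma adjusted p = 0.737), and IFIT3 at 79.8, 257, 219.9 and 153 and 549, 925, 368 and 350.1, 1.64 ± 0.72 (SE). The 10 measured milk genes lay above 0 in 9 cases (median 1.09), the 33 S phase genes in 12 (median -0.18) and the 46 G2/M genes in 20 (median -0.23). Extracellular matrix genes had 30 of 49 above 0 (median 0.043), immediate early genes 13 of 16 (median 0.25), heat shock chaperones 7 of 11 (0.13), the integrated stress response 7 of 12 (0.013) and fatty acid oxidation 9 of 17 (0.15). Contractile genes had 4 of 13 above 0 (-0.091), steroid receptors and their enzymes 6 of 10 (0.11), ID and BMP genes 6 of 9 (0.32), MHC class II 3 of 6 (-0.057) and Wnt genes 6 of 12 (-0.0046). The median over all genes was 0.040.

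In DESeq2 on the 8 parous samples alone, the glucocorticoid list had 7 of 19 genes called, all higher (TSC22D3, FKBP5, KLF15, ZBTB16, PER1, MT2A and TXNIP), beside 1.64% of all genes in either direction. Secretory basal cell markers had 2 of 5 called (S100A4 and EPAS1), interferon-stimulated genes 2 of 13 (IFIT1 and IFIT3), clock genes 2 of 14 (PER1 and CRY2), the IGF axis 2 of 14 (IGF2 and IGFBP4) and latency genes 1 of 8 (LTBP1).

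The TGFBRi effect was then set beside that in virgin rats of the same age. In virgin basal cells 1173 genes passed in limma (8.73%), 336 higher and 837 lower after TGFBRi. The difference of the 2 effects, parous minus virgin, passed for 140 genes (1.04%), 116 above and 24 below 0, of which 135 also passed in virgin rats and 1, PLXNB3, in parous rats. Leaving out any 1 of the 8 parous samples brought the count of 140 to between 26 (without TGFBRi replicate 3) and 76 (without vehicle replicate 2). For 134 of the 140 the change was larger in size in virgin than in parous cells. The 4 virgin TGFBRi samples had 10151 to 11434 genes with reads, fewer than the 12123 to 12561 of virgin vehicle samples and than any parous sample, and leaving out the one with the fewest, replicate 3, gave 153 genes (134 above, 19 below 0). Virgin vehicle replicate 1 stood apart, with r of 0.843 to 0.884 to the other three, which were at 0.962 to 0.964 among themselves, and the virgin TGFBRi samples correlated at 0.758 to 0.848. The marker sums of that vehicle sample were 401963 for luminal epithelium, 34458 for leukocytes and 59850 for endothelium, against at most 104472, 3249 and 9483 in the other virgin vehicle samples and 98443, 3215 and 7915 in virgin TGFBRi samples. Without it 882 genes passed in virgin cells (278 higher, 604 lower) and 81 for the difference, 70 of them among the 140. Leaving out 1 virgin sample moved the count of 140 to 64, 19 and 62 without vehicle replicates 2 to 4, and to 520, 363 and 159 without TGFBRi replicates 1, 2 and 4.

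PLXNB3 had a difference of 9.89 ± 1.24 (SE, limma adjusted p = 0.0031). TGFBR1 stood at 0.31 ± 0.31 in parous and -2.39 ± 0.31 in virgin cells, a difference of 2.70 ± 0.43 (SE, limma adjusted p = 0.0116). LGI4 lay above 0 in parous and below 0 in virgin cells (1.54 ± 0.39 and -1.01 ± 0.39, SE, limma adjusted p of the difference = 0.0385), where neither change passed in limma, and the parous one passed in DESeq2. ESYT2 stood at 0.76 ± 0.19 in parous and -0.85 ± 0.19 in virgin cells, where it passed (SE, limma adjusted p of the difference = 0.0146). PTHLH, a hormone of gland development that TGFβ induces, was near -0.39 in parous and at 3.24 ± 0.52 in virgin cells, and ACTA2 at -0.079 and 1.92 ± 0.28 (limma adjusted p of the difference = 0.0304 and 0.0301). FBN1, a microfibril protein, stood at 0.47 and -2.76 ± 0.44 (adjusted p of the difference = 0.0249 in limma). Without virgin vehicle replicate 1 the difference no longer passed for LGI4 (adjusted p = 0.0608 in limma) or PTHLH (0.0528), and still passed for PLXNB3, TGFBR1, ESYT2, ACTA2 and FBN1.

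The glucocorticoid genes gave no difference with parity that passed. In virgin cells 3 of the 19 passed in limma, against 8.73% of all genes: BCL6 (1.43 ± 0.34, SE), the factor CEBPB (1.604 ± 0.29, SE) and the EGF receptor inhibitor ERRFI1 (1.78 ± 0.53, SE), and the median of the list was 0.62, beside -0.25 over all genes. KLF15 stood at 1.69 ± 0.53 (SE) in virgin cells, with 60.02, 123, 44.9 and 55.7 in vehicle and 222, 139, 241 and 276 in TGFBRi samples, and the difference from parous cells was 1.47 ± 0.74 (SE, limma adjusted p = 0.324). TSC22D3 stood at 0.71 ± 0.41 and ZBTB16 at 0.17 ± 0.42 (SE) in virgin cells, differences of 1.62 ± 0.58 and 1.64 ± 0.59 (SE, limma adjusted p = 0.18 and 0.178). A p that misses the threshold does not show that the effects were alike.

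**Figure D5:**
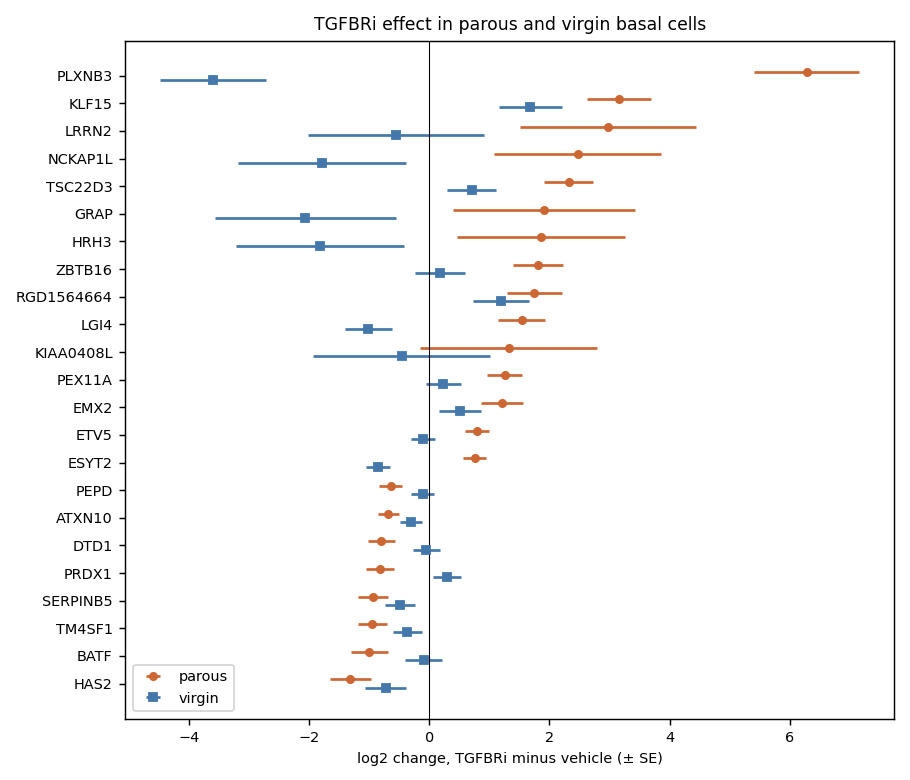
Fitted log2 change after TGFBRi (± SE) of the 23 genes named by rule, in parous (orange circles) and virgin (blue squares) basal cells. For PLXNB3 (6.29 and -3.60), LGI4 and ESYT2 the parous and virgin points lie on opposite sides of 0 and the difference passed an adjusted p of 0.05 in limma.

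Basal and luminal cells of the same 8 parous rats were compared by the within-rat difference of log2 values. No gene passed for a difference in TGFBRi effect between the fractions (0 of 13151 in limma, 991 at an unadjusted p under 0.05). ZBTB16 held 54.6 to 244 in the vehicle samples and 497 to 1119.8 in the TGFBRi samples of luminal cells, without overlap as in basal cells, and the difference of effect was -0.77 ± 0.65 (SE). PEX11A held 1283 to 1398 in the vehicle samples and 1661 to 3599.6 in the TGFBRi samples, also without overlap, with a difference of 0.36 ± 0.40 (SE). TSC22D3 held 2012 to 5299 in the vehicle samples and 4349 to 5913 in the TGFBRi samples and KLF15 5.65 to 83.4 in the vehicle samples and 36.5 to 75.1 in the TGFBRi samples, both with overlap, and the differences were 1.76 ± 0.52 (SE) and 2.25 ± 1.08 (SE). Adjusted p of these 4 differences lay between 0.514 and 0.917 in limma.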

How the data were processed

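RNA of sorted cells was made into SMARTer low-input libraries, which do not mark strand, and sequenced on 1 platform. Per the labels and the methods, the authors aligned reads with STAR 2.5.1b to rn6, counted them with HTSeq on RefSeq genes and scaled the counts with DESeq2 1.30.1, and deposited normalized values (unit signal, counts divided by size factors). All 397248 values above 0 of the 32 adult basal and luminal tables were whole reads at a tolerance of 0.001, so that reads were recovered. Rows of reads on no gene (26.1 to 33.2% of reads in basal samples) stayed out of totals and tests. limma 3.58.1 (trended prior, robust variances) was fitted to log2(normalized value + 1) of the 16 adult basal samples where the sum over samples reached 10, with Benjamini-Hochberg adjustment and a threshold of 0.05. Alternatives were edgeR 4.0.16 and DESeq2 1.42.0 on recovered reads, other scaling, pseudocounts, filters and left-out samples, and fits on the 8 parous samples alone. The members, the 34 gene lists and the rule for named genes were chosen with earlier results of these data known. The rule took genes passing in limma, at most 10 per direction and tool passing in edgeR or DESeq2, the 8 per direction with the smallest limma p among non-overlapping genes averaging 50 reads or more, and list genes by role. Single values were compared by exact two-sided permutation in scipy 1.17.1. The fits were tested on simulated counts of this comparison, where DESeq2 made more false calls than limma or edgeR. Replicates were not duplicates: the closest pair of 1 arm had a chi-square of 51.9 per degree of freedom. Intervals rest on the spread between rats within arms, taken over all 16 adult basal samples, parous and virgin. The virgin TGFBRi samples correlated less with each other than parous samples of an arm did (0.758 to 0.848 against 0.924 to 0.964).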

Additional observations from a re-analysis of the deposited data

Results flagged for a closer look

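The number of genes whose TGFBRi effect differed between parous and virgin basal cells, 140, came from a test of the difference itself. Among named genes these were PLXNB3 (a difference of 9.89 on the log2 scale), TGFBR1 (2.70), LGI4 (2.55), FBN1 (3.23), ESYT2 (1.61), ACTA2 (-2.002) and PTHLH (-3.63).

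Of 72 groups of 4 values examined, 11 had a sample far from the other three by Dixon's ratio, where chance flags about 1 in 20. TSC22D3 gave the high value of 15852 in TGFBRi replicate 1 and the low value of 876 in vehicle replicate 4. Vehicle replicate 4 was also low in TM4SF1 (11451), had the fewest genes with reads (11775) and the highest vehicle share of reads on no feature (18.5%). TGFBRi replicate 1 had a share of 20.9% and an erythroid marker sum of 47.3. The remaining flags were HAS2 in vehicle replicate 3 (2524), PRDX1 in TGFBRi replicate 2 (11390.3), KIAA0408L in TGFBRi replicate 4 (38.0) and the endothelial marker sum in TGFBRi replicate 4 (4089.7).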

How the results depend on the processing

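The count of genes past the threshold in parous basal cells, 1 in limma, was 0 with edgeR, 14 with DESeq2, 3 with a pseudocount of 5, 0 with a value of at least 10 required in 4 basal samples, and 0 to 5 when 1 replicate was left out (0 without vehicle replicates 1, 2 or 4 or TGFBRi replicates 1 or 3, 5 without vehicle replicate 3, and 2 without TGFBRi replicates 2 or 4). Among alternatives added later it was 4 with edgeR and 201 with DESeq2 (160 higher, 41 lower) on the 8 parous samples alone, 0 with the share of reads on no feature as covariate and 0 without both TGFBRi samples of high adipocyte and pericyte sums. It was 1 under the other 7 alternatives, among them 1 without virgin vehicle replicate 1. The count of 140 for the difference between parous and virgin cells was 577 with DESeq2 and 19 to 520 without 1 replicate: 73, 76, 28 and 59 without vehicle replicates 1 to 4, and 45, 33, 26 and 32 without TGFBRi replicates 1 to 4 of the parous rats, and 81, 64, 19 and 62 without vehicle and 520, 363, 153 and 159 without TGFBRi replicates 1 to 4 of the virgin rats. The difference between basal and luminal cells kept a count of 0 in all 12 alternatives.

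With the animal label as a replicate block the counts were 0 for the parous effect and 0 for the difference between parous and virgin cells, in limma and in edgeR alike, and 0 for basal against luminal cells. Deviations of samples with the same label correlated at -0.18, 0.13, -0.13 and 0.01 in parous rats, none best with its own number. In virgin rats they correlated at 0.15, -0.07, -0.05 and 0.16, 1 of them (replicate 1) best with its own number. The sources used here do not say what the labels mark, and 4 samples per arm are too few to exclude a pairing by label.

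Of 574 refitted values of the 23 named genes, 2 reversed: GRAP (-0.039) and HRH3 (-0.021) with the share of reads on no feature as covariate. Of other genes in the text, ACTA2 (-0.079) ran from -0.25 to 0.14 without 1 replicate, reversing without vehicle replicate 3 and TGFBRi replicate 1, and was 0.088 with that covariate and 0.039 without both TGFBRi samples, where INHBA was -0.11. The causes were not tested. The ratio of erythroid marker sums, 2.43, ran from 0.346 to 38.3 without 1 sample. Thinning the reads to the smallest total left the count at 1.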
